A study of Sus scrofa with 12 samples.

Results

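Cytosolic ribosomal protein genes encode the protein parts of the ribosome that translates nuclear mRNA in the cytoplasm. They were taken from the mRNA tables by symbol, as RPL or RPS followed by a number, by P for the stalk proteins or by A for RPSA. The symbols matched 82 genes, of which 11 that encode S6 kinases or a protein binding RPS19 were left out. The remaining 71 of 31694 listed genes comprised 43 genes of the large subunit (RPL) and 28 genes of the small subunit (RPS). Livers of 3 Jinhua (JH) and 3 Landrace (LD, the control breed) pigs, all uncastrated males of 70 days of age, had been sequenced as 1 mRNA library per pig, with no treatment given in the labels. JH pigs grow slowly and deposit much fat, and LD pigs are lean and grow fast. Breed was the only labelled difference, and the question was whether this gene family differed between the livers of the breeds.

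A eukaryotic ribosome is built from a large subunit, which forms the peptide bonds, and a small subunit, which reads the mRNA. The proteins are made in nearly equal numbers and join the ribosomal RNA in the nucleolus with the help of assembly factors. Their mRNAs are abundant and short and begin with a terminal oligopyrimidine (TOP) tract, through which mTOR signalling and the LARP1 protein control their translation. The liver, which secretes most plasma proteins, is rich in ribosomes.

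The values are RPKM, that is reads scaled to the length of the gene and to the depth of the library. The total reads behind the RPKM, recovered from the whole-read steps of the values, ranged from 5744908 in JH1 to 7914515 in LD3. Levels are given as RPKM. Differences are log2 fold changes of JH over LD on the log2(RPKM + 0.1) scale, with the standard error (SE), tested in limma with Benjamini-Hochberg adjustment over all 12993 genes that reached an RPKM of 0.5 in 3 or more libraries. Of the 71 ribosomal protein genes, 63 met this minimum, 37 of the large and 26 of the small subunit, and their reads were recovered in each library (30 to 7664 reads per gene and library). A further 7, RPL10, RPL23, RPL36A, RPL37, RPL3L, RPL7 and RPS2E, were listed at 0 in all 6 libraries. RPS16 was listed at 0 in 4 libraries and was close to 0 in JH3 and LD2 (0.204 RPKM in JH3). RPL10, RPL23, RPL37, RPL7 and RPS16 belong to the ribosome of every cell, so these values of 0 are listed values and not evidence that the gene was silent. Reads of 50 bp were mapped, and ribosomal protein genes have many near-identical processed copies. How reads matching several places were treated is not given in the sources used here, so the levels of single genes are uncertain in this respect.

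Nearly all tested ribosomal protein genes had a higher mean level in JH liver, but no gene passed the test. The log2 fold change was above 0 in 37 of 37 large subunit genes and 24 of 26 small subunit genes, against 52.9% of all genes tested. The median log2 fold change was 0.38 over the large subunit (0.07 to 0.86) and 0.41 over the small subunit (up to 0.78), against 0.04 over all genes tested. Without JH1 these medians were 0.18 and 0.24, and without JH3 0.64 and 0.61. At an adjusted p under 0.05, 0 of the 63 genes were called, either higher or lower in JH, where 1.02% of all genes were called higher and 1.36% lower. The DEG threshold, which adds an absolute log2 fold change above 1, was met by 0 members and by 2.39% of all genes. At an unadjusted p under 0.05, 7 genes were higher in JH, 5 of the large and 2 of the small subunit, and 0 were lower. These 7 are 11.1% of the tested members, beside a background of 8.35% higher and 9.51% lower. In 14 genes every JH value lay above every LD value (22.2%, beside 10.8% of all genes), and in 0 genes every JH value lay below (12.5% of all genes). The count at the unadjusted threshold hung on single pigs. At an unadjusted p under 0.05 the count was 39 without JH3 (61.9% of members, 13.4% of all genes), 13 without LD1 (20.6% and 7.88%) and 1 to 3 when any of the other 4 libraries was left out (1.59% to 4.76% of members, 5.37% to 7.67% of all genes). The count of members with every JH value above every LD value can only stay or rise when a library is left out. It was 59 without JH3 (93.7%, beside 26.8% of all genes) and 25 without LD1 (39.7%, beside 18.3%). When any of the other 4 was left out it was 14 or 15 (22.2% to 23.8%, beside 12.4% to 17% of all genes). Under voom on the recovered reads, 12 members were higher at an unadjusted p under 0.05 (19.0%, beside 8.41% of all genes) and 0 at an adjusted one. The 63 genes are not independent, since they shared the same 6 livers and moved together from library to library.

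**Figure D1:**
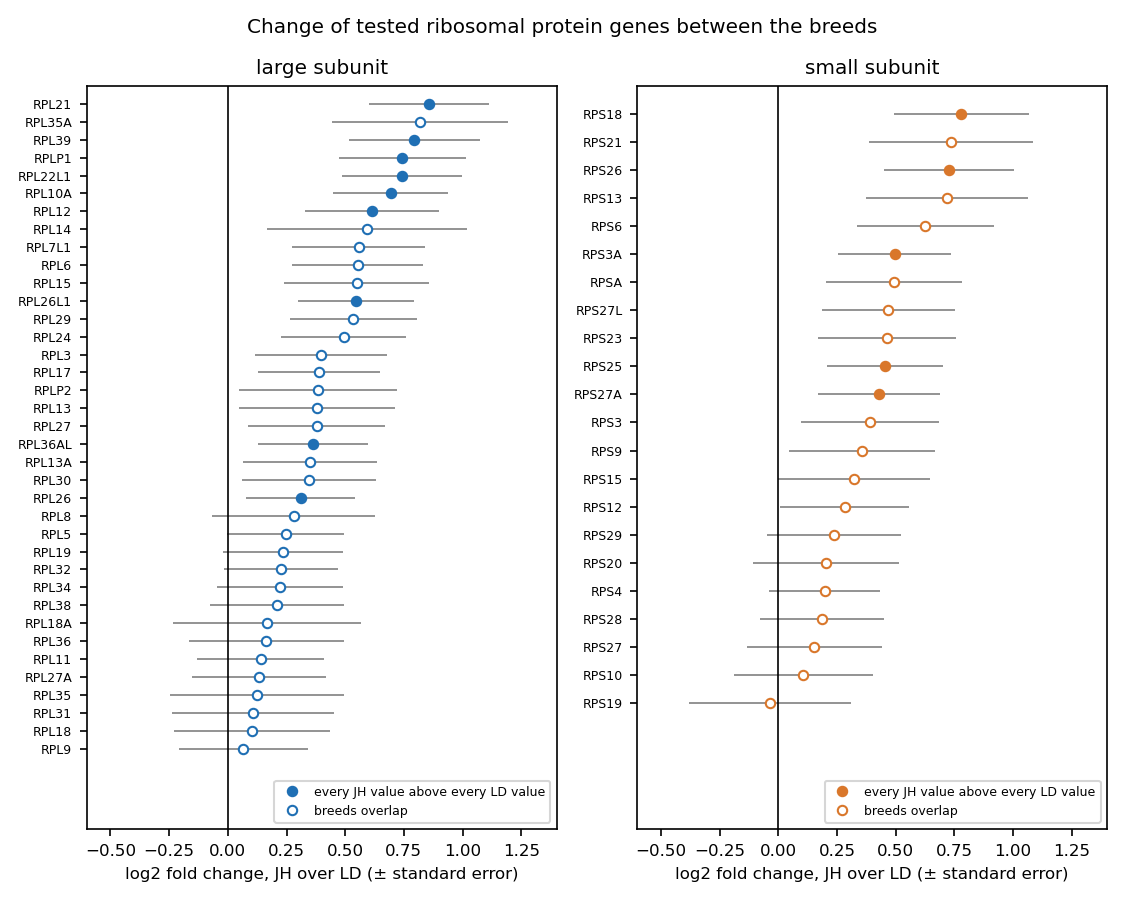
Log2 fold change (JH over LD, x axis) with its standard error for 59 tested ribosomal protein genes, large subunit on the left and small subunit on the right, ordered by size. Filled points mark the 14 genes whose 3 JH values all lie above the 3 LD values; 58 of the 59 points lie to the right of 0.

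The difference between the breeds came from JH1 and JH2. Summed over both subunits, the RPKM amounted to 43398, 37255 and 24407 in JH1, JH2 and JH3, against 27307, 27807 and 24840 in LD1, LD2 and LD3. JH3 was thus the lowest of all 6 libraries and the breeds overlapped. As a share of reads, the members took 3.09% in JH1 (95% Wilson interval 3.08 to 3.11), 2.63% in JH2 (2.62 to 2.64) and 1.75% in JH3 (1.74 to 1.75). The share was 1.97% in LD1 (1.96 to 1.98), 1.97% in LD2 (1.97 to 1.98) and 1.73% in LD3 (1.72 to 1.74). These intervals cover counting error only, and the spread among JH pigs was many times wider. The mean share was 2.49% ± 0.685 in JH and 1.89% ± 0.139 in LD (SD, n = 3), a difference of 0.598 percentage points that was smaller than the SD within JH.

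Gene by gene the order was nearly the same. JH1 held the highest value of 52 of the 63 genes and JH2 that of the other 11, which included RPL3, RPL24, RPL31, RPL35A and RPS9. Both JH1 and JH2 lay above every LD library in 59 genes, 34 of the large and 25 of the small subunit. The exceptions were RPL9, RPL14, RPL36 and RPS19. JH3 lay below JH1 and JH2 in 62 genes, with the stalk protein gene RPLP1 as the exception. Against LD, JH3 was above every LD library in 14 genes, within the LD range in 24 and below every LD library in 25. The 14 genes in which the breeds did not overlap are therefore those in which JH3 also exceeded LD. The number of genes above their own mean over the 6 libraries came to 63, 62 and 6 in JH1, JH2 and JH3 and to 13, 19 and 4 in LD1, LD2 and LD3.

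**Figure D2:**
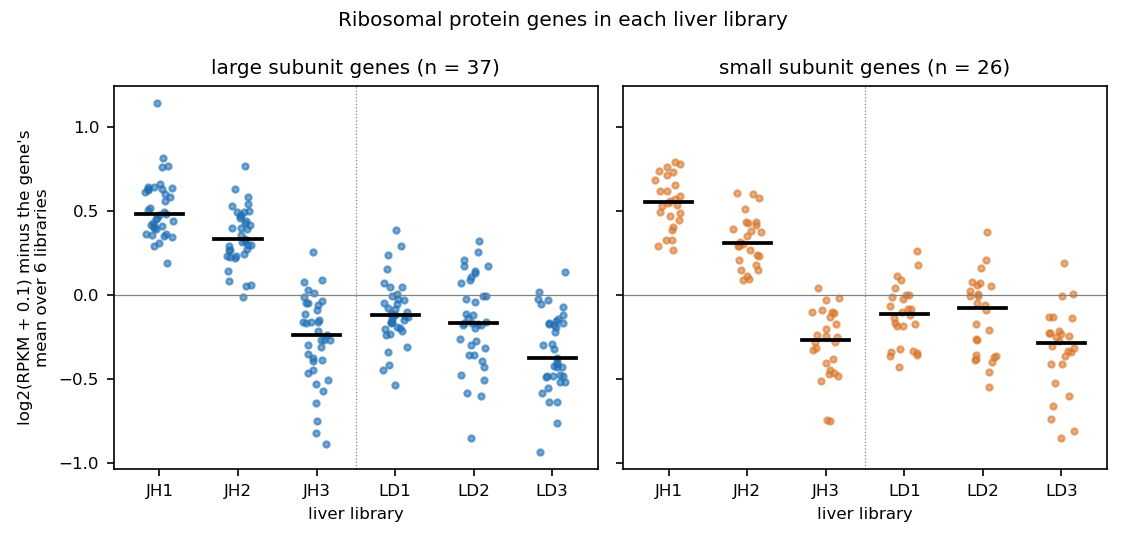
Each point is 1 ribosomal protein gene in 1 liver library (x axis), as log2(RPKM + 0.1) minus that gene's mean over the 6 libraries (y axis), and bars are medians. The medians over both subunits were 0.52, 0.32 and -0.25 in JH1, JH2 and JH3 and -0.12, -0.16 and -0.32 in LD1, LD2 and LD3.

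Some features of the libraries moved with these values. Residual 18S ribosomal RNA, listed as RN18S, was at 5991, 1570 and 62257 RPKM in JH1, JH2 and JH3 and at 7309, 2108 and 20160 RPKM in LD1, LD2 and LD3. It was thus highest in JH3 and LD3, the libraries with the lowest share of ribosomal protein reads in their breed. The median of all genes tested deviated by 0.14, 0.16 and -0.17 in JH1, JH2 and JH3 and by 0.07, 0.11 and -0.18 in LD1, LD2 and LD3 on the log2 scale. Among other genes whose mean RPKM reached 100, the 330 of under 1500 bases had a median log2 fold change of 0.26, and the 293 of at least 1500 bases one of -0.01. The short ones deviated by 0.31, 0.31 and -0.23 in the JH libraries and by -0.06, -0.04 and -0.29 in the LD libraries, in the same direction as the ribosomal protein genes in every library. With a trend on gene length removed from each library, the medians of the large and small subunit were 0.26 and 0.28. Without JH3 and LD3, 18 members passed an unadjusted p under 0.05, all higher in JH (28.6%, beside 9.41% of all genes), and 0 an adjusted one. The part of ribosomal RNA and gene length in the difference was not tested further.

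The cell type markers of the liver differed in part as well. The summed RPKM of 8 hepatocyte markers (7 listed, APOB at 0, ALB among the rest) was 56935 to 69047 in JH and 71864 to 85280 in LD. At an unadjusted p under 0.05, JH was lower for 3 of the 6 tested (ALB, TF and SERPINA1) and higher for 1 (APOA1, with every JH value above every LD value), and 0 passed an adjusted one. Stellate cell and fibroblast markers summed to 52.3 to 85.6 in JH and 169 to 337 in LD, with 3 of 6 lower in JH at an adjusted p under 0.05. Bile duct markers (1.46 to 1.93 against 4.41 to 9.15) and erythroid markers (90.2 to 122 against 213 to 393) had lower sums in JH. Each list had 2 tested genes, and all of them had a negative log2 fold change with an unadjusted p below 0.05. In each list 1 of the 2 also passed the adjusted limit of 0.05 (EPCAM and HBB). Endothelial markers summed to 36.2 to 56.5 in JH and 65.2 to 78.4 in LD, and 0 of the 5 tested had a log2 fold change above 0. At an unadjusted p under 0.05, 2 of the 5 were lower in JH (KDR and PECAM1), and 0 passed an adjusted one. In 3 of the 5 every JH value lay below every LD value, beside 12.5% of all genes. Lymphocyte markers (24.2 to 81.7 against 28.0 to 36.1) and macrophage markers (704 to 1693 against 899 to 1025, CD163 at 0) were highest in JH2. At an unadjusted p under 0.05, 0 of 8 tested lymphocyte genes and 2 of 6 tested macrophage genes (C1QB and CSF1R) were higher in JH. The breeds overlapped in both, and CSF1R had 7 to 39 reads per library. The related C1QA and C1QC had log2 fold changes of -0.20 (SE 0.37) and 0.08 (SE 0.36), and 4 of the 6 macrophage genes were above 0. Markers of dividing cells summed to 60.2 to 92.4 in JH and 40.8 to 68.2 in LD, with MKI67 the highest of them. MKI67 was higher in JH at an unadjusted p under 0.05, but only 2 of the 5 tested had a log2 fold change above 0 (median -0.01). At an adjusted p under 0.05, 0 genes of the lymphocyte, macrophage and dividing cell lists were called. Over all genes, 8.35% were higher and 9.51% lower at the unadjusted threshold. In whole liver, fewer cells of a type and less RNA per cell cannot be told apart, and the part of cell makeup in the levels of ribosomal protein genes was not tested.

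Large and small subunit genes moved in step. The large subunit summed to 22146, 19230 and 12629 RPKM in JH1, JH2 and JH3 and to 14277, 14159 and 12952 RPKM in LD1, LD2 and LD3. The small subunit summed to 21252, 18026 and 11778 RPKM in the JH libraries and to 13030, 13648 and 11888 RPKM in the LD libraries. The ratio of both sums was 1.06 ± 0.0160 in JH and 1.07 ± 0.0320 in LD (SD, n = 3), with a range of 1.04 to 1.096, while the sums themselves varied from 24407 to 43398. The breeds overlapped in this ratio, and their means differed by -0.0139, less than either SD.

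Within a library the members differed widely in level. Mean RPKM over the 6 libraries ran from 9.41 for RPL22L1 to 1137 for RPL35, and 56 of 63 genes had a mean of at least 100. Between 32 (LD3) and 43 (JH1) of them were among the 200 genes with the highest RPKM of a library. RPL35, which sits near the exit of the peptide tunnel, had 1627, 1456 and 612 RPKM in JH1, JH2 and JH3 and 980, 1167 and 980 RPKM in LD1, LD2 and LD3. JH3 was the lowest of the 6 libraries and the breeds overlapped. RPL11 (mean 924 RPKM) and RPL34 (876) of the large subunit and RPS12 (945) and RPS20 (908) of the small subunit were also among the highest, and their ranges overlapped with that of RPL35, so their order is not resolved. Between any 2 libraries, Spearman's rho of the 63 levels was 0.911 to 0.976 over 15 pairs. This likeness is a description, since the values share gene lengths and the mapping.

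At the low end stood RPL22L1 and RPL15. RPL22L1, a paralog of RPL22, had 12.4, 14.0 and 9.19 RPKM in JH and 8.10, 6.43 and 6.41 RPKM in LD, from 30 to 64 reads per library. All JH values lay above all LD values (log2 fold change 0.74, SE 0.26, limma adjusted p = 0.177). RPL15, a core protein of the large subunit, had 13.2, 12.4 and 9.11 RPKM in JH and 7.59, 11.3 and 5.50 RPKM in LD, and the breeds overlapped. It had 76 to 168 reads per library. As with the core genes listed at 0, this is a listed value and not evidence that the gene was weakly expressed. Next came RPL7L1 (mean 38.2 RPKM), a paralog of RPL7 that acts in ribosome assembly, and RPL26L1 (44.6), a paralog of RPL26. In the small subunit the lowest were RPS27L (63.1), a paralog of RPS27, RPS25 (117) and RPS6 (273).

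**Figure D3:**
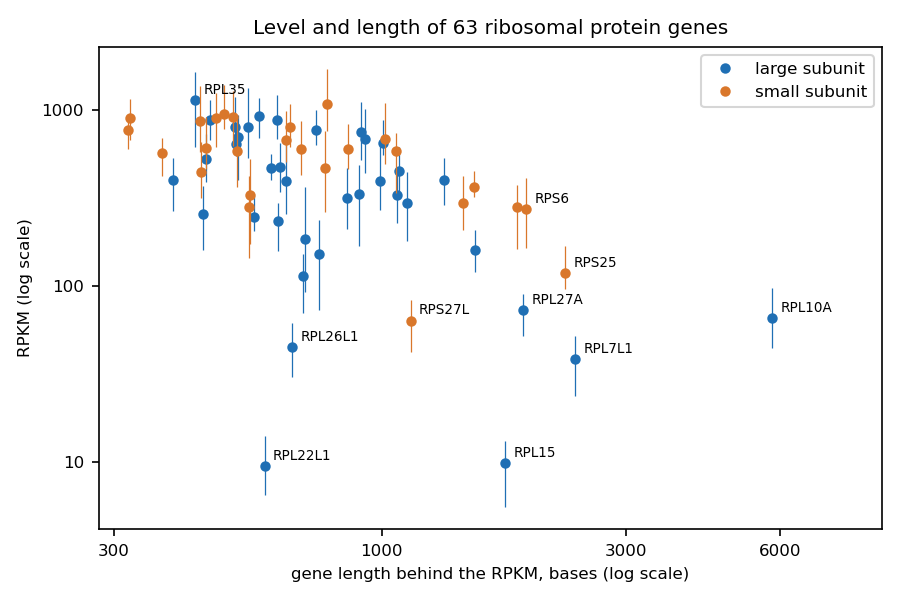
Mean RPKM over 6 libraries (y axis, log scale) against the gene length by which the authors divided, recovered from the values (x axis, log scale), for 63 ribosomal protein genes; vertical lines run from the lowest to the highest library. Lengths ran from 320 to 5798 bases, and the long genes RPL10A and RPL7L1 lie at the low end of the levels.

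Level and length were related over the 63 genes, with a Spearman's rho of -0.53 between mean RPKM and recovered length. The genes are not independent, and RPKM contains the length, so no p is given. The recovered lengths had a median of 668 bases, and 45 genes were under 1000 bases. RPL10A, a large subunit protein at the L1 stalk, had a recovered length of 5798 bases and a mean of 65.4 RPKM, although its 2017 to 3574 reads per library were as many as those of genes with several times that RPKM. A low RPKM of such a gene depends on the length given to its model. Comparisons of the same gene between libraries do not depend on it.

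RPL21, a large subunit protein near the central protuberance, had the largest difference and the lowest p of all members. It had 442, 407 and 297 RPKM in JH1, JH2 and JH3 and 242, 208 and 180 RPKM in LD1, LD2 and LD3. Every JH value lay above every LD value, JH3 included (log2 fold change 0.86, SE 0.26, limma adjusted p = 0.130). RPL39, a small protein that lines the exit tunnel, had 368, 363 and 244 RPKM in JH and 242, 160 and 162 RPKM in LD. Its breeds were separate by a narrow gap between JH3 and LD1 (0.79, SE 0.28, limma adjusted p = 0.183). RPL35A had 214, 235 and 123 RPKM in JH and 169, 92.2 and 72.2 RPKM in LD, so JH3 fell below LD1 (0.82, SE 0.37, limma adjusted p = 0.292). RPL10A was at 97.5, 79.5 and 66.4 RPKM in JH and 56.3, 49.1 and 44.0 RPKM in LD, with no overlap (0.69, SE 0.25, limma adjusted p = 0.184). RPL10A was named after its values were seen, as 1 of the 7 genes at an unadjusted p under 0.05.

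In the small subunit, RPS18, a protein of the head, led with 932, 783 and 511 RPKM in JH and 487, 419 and 362 RPKM in LD. The breeds did not overlap (log2 fold change 0.78, SE 0.29, limma adjusted p = 0.198). RPS26, which lies at the mRNA exit channel, had 1369, 1066 and 811 RPKM in JH and 765, 597 and 571 RPKM in LD, again without overlap (0.73, SE 0.28, limma adjusted p = 0.210). RPS21 (0.74, SE 0.35) and RPS13 (0.72, SE 0.35) had differences of like size, but in each JH3 lay below LD1. At the other end, RPS19, which is mutated in Diamond-Blackfan anaemia, had 374, 317 and 161 RPKM in JH and 237, 349 and 247 RPKM in LD. JH3 was the lowest library, the breeds overlapped, and the log2 fold change was -0.03 (SE 0.35). Two-sided exact permutation tests of 3 against 3 pigs cannot give a p below 0.1, so they could not reach significance for any gene.

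The stalk proteins bind the elongation factors to the large subunit. RPLP1 had 1326, 781 and 899 RPKM in JH and 655, 530 and 571 RPKM in LD, with no overlap (log2 fold change 0.74, SE 0.27, limma adjusted p = 0.196). RPLP2, its partner in the stalk dimer, had 467, 406 and 210 RPKM in JH and 223, 330 and 243 RPKM in LD. JH3 thus exceeded JH2 for RPLP1 and was the lowest of all 6 for RPLP2, and the ratio of RPLP1 to RPLP2 was 4.28 in JH3 and 1.61 to 2.93 in the other libraries. RPLP0, the base of the stalk, is not listed by symbol and was found by its gene identifier, at 319, 219 and 160 RPKM in JH and 160, 149 and 137 RPKM in LD (0.59, SE 0.29, limma adjusted p = 0.323). Its JH3 and LD1 values were nearly equal.

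RPL5 and RPL11 form the 5S particle, which also binds MDM2. RPL5 had 869, 672 and 568 RPKM in JH and 554, 584 and 611 RPKM in LD, and RPL11 had 1166, 1078 and 694 RPKM in JH and 813, 896 and 895 RPKM in LD. The breeds overlapped in both (log2 fold change 0.25, SE 0.25, and 0.14, SE 0.27). Of the proteins near the peptidyl transferase centre, RPL3 had 515, 531 and 321 RPKM in JH and 329, 406 and 288 RPKM in LD (0.40, SE 0.28), and RPL10 was listed at 0. Of the tunnel proteins, RPL17 had 1216, 997 and 758 RPKM in JH and 745, 683 and 807 RPKM in LD (0.39, SE 0.26). RPL4, found by its gene identifier, had 806, 551 and 546 RPKM in JH and 480, 437 and 451 RPKM in LD, with no overlap between the breeds (0.45, SE 0.25, limma adjusted p = 0.385). RPL13A, known also for silencing of inflammatory mRNAs, had 616, 540 and 353 RPKM in JH and 455, 383 and 326 RPKM in LD, so that JH3 fell within the LD range (0.35, SE 0.28).

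RPS6, the substrate of the S6 kinases, had 411, 348 and 238 RPKM in JH and 261, 216 and 164 RPKM in LD (log2 fold change 0.63, SE 0.29, limma adjusted p = 0.305). RPSA, which is also the laminin receptor, had 1088, 707 and 611 RPKM in JH and 673, 509 and 492 RPKM in LD (0.49, SE 0.29). RPS3, at the mRNA entry channel, had 1081, 1042 and 613 RPKM in JH and 617, 815 and 610 RPKM in LD (0.39, SE 0.29). In all of these genes JH1 and JH2 exceeded every LD library and JH3 did not. RPS27A, made as a fusion with ubiquitin, had 981, 725 and 612 RPKM in JH and 594, 505 and 595 RPKM in LD, and JH3 stayed just above LD (0.43, SE 0.26, limma adjusted p = 0.431). FAU, made as a fusion with a ubiquitin-like protein and outside the symbol rule, had 858, 776 and 393 RPKM in JH and 520, 497 and 375 RPKM in LD, with overlapping breeds (0.48, SE 0.33). GNB2L1, the older symbol of the small subunit protein RACK1, was listed at 0.

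Paralogs were measured side by side where both were listed above 0, and otherwise the listed one is given alone. The level of RPL26L1 was 0.0556 to 0.0870 of that of RPL26 over the 6 libraries, with a mean ratio of 0.0747 ± 0.0107 in JH and 0.0632 ± 0.00663 in LD (SD, n = 3). RPL26 and RPL26L1 both had every JH value above every LD value, with log2 fold changes of 0.31 (SE 0.23) and 0.55 (SE 0.25). The level of RPS27L was 0.0728 to 0.170 of that of RPS27, with 0.124 ± 0.0177 in JH and 0.107 ± 0.0547 in LD, and the breeds overlapped. RPL36AL had 275, 323 and 231 RPKM in JH and 205, 220 and 215 RPKM in LD, with no overlap (0.36, SE 0.23), while RPL36A was listed at 0. RPL10L, a paralog of RPL10 found by its gene identifier, had 14.4, 12.9 and 11.3 RPKM in JH and 9.55, 7.57 and 8.86 RPKM in LD (0.56, SE 0.23, limma adjusted p = 0.251). RPL10L had 52 to 87 reads per library, while RPL10 was listed at 0, so the pair could not be compared. RPS4, the older symbol of RPS4X, had 450, 398 and 319 RPKM in JH and 343, 338 and 327 RPKM in LD (0.20, SE 0.24).

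A RefSeq gene table of a later pig assembly holds 83 symbols of the rule, of which 69 had a line by symbol in the mRNA tables and 14 did not. Of these 14, 7 were found by gene identifier. Besides RPLP0, RPL4 and RPL10L, they were RPS24, RPS7, RPL23A and RPS15A, the last listed at 0. RPS24 had 655, 631 and 484 RPKM in JH and 442, 290 and 313 RPKM in LD, without overlap (log2 fold change 0.77, SE 0.26, limma adjusted p = 0.173). RPS7 (0.54, SE 0.33) and RPL23A (0.31, SE 0.30) overlapped between the breeds. These genes lay within the range of log2 fold changes of the 63 members and are not counted among them.

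To see which genes departed from the rest of the family, the median of the tested members was subtracted from each library, and all genes were tested again. On this scale 0 members passed an adjusted p under 0.05 (background 0.616% higher and 2.39% lower) or met the DEG threshold (2.99% of all genes), and 1, RPL21, passed an unadjusted p under 0.05 (background 3.38% higher and 18.2% lower). RPL21 was 0.52 higher in JH relative to the median member on the log2 scale (limma adjusted p = 0.189). This count was 0 without JH3, LD2 or LD3 and 5 without LD1, so the departure of RPL21 at this threshold rested on single libraries. RPL21 was followed by RPL35A (0.48), RPL39 (0.46), RPS18 (0.44) and RPLP1 (0.41). At the low end stood RPS19 (-0.37), RPL9 (-0.27), RPL18 (-0.23) and RPL31 (-0.23). Every JH value lay above every LD value in 10 genes (15.9%, background 4.87%) and below in 3 (4.76%, background 21.7%). Subtracting the members' own median set the median change near 0 for the members (0.04) and at -0.30 for all genes. The background on this scale is thus low above and high below by construction, and no conclusion is drawn from the contrast with it. The 10 included RPL10A, RPL12, RPL21, RPL22L1, RPL29, RPL39, RPS6, RPS18 and RPS26, and the 3, all of the small subunit, included RPS10 and RPS20.

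**Figure D4:**
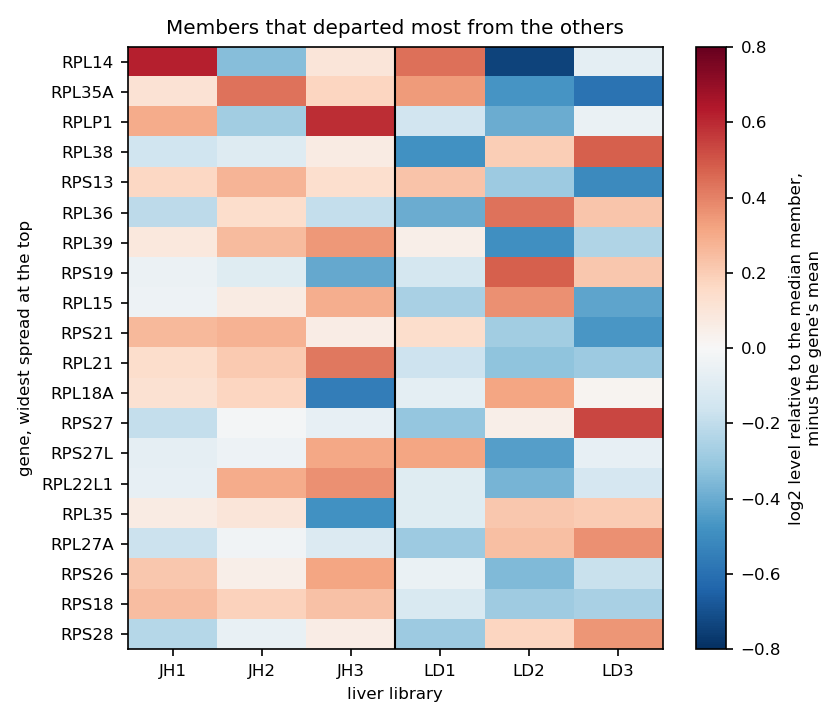
Log2 level relative to the median member of the library, minus the gene's mean over the 6 libraries (colour), for 20 members with a wide spread (y axis) in each library (x axis). RPL14 stands out in single pigs, high in JH1 and LD1 and low in LD2, while RPL21 and RPS18 are higher in all 3 JH libraries than in all 3 LD libraries.

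The subtraction removes what the members share by its construction, so the spread that remains is smaller. The within-breed SD of the log2 level had a median of 0.35 over the members as deposited and 0.19 relative to the median member. Over all genes as deposited it was 0.39, beside the 0.35 of the members. Counting error was smaller still, with a median SD of 0.0287. RPL14 varied most, with an SD of 0.50 over the 6 libraries relative to the median member. It was at 365, 164 and 140 RPKM in JH and 217, 91.7 and 124 RPKM in LD, so single pigs of 1 breed differed by more than the breeds did. RPL35A (0.43), RPLP1 (0.37), RPL38 (0.33) and RPS13 (0.32) followed. RPL13A was among the steadiest, with an SD of 0.07. RPL14 and RPL38 were named after their values were seen.

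Other genes of the translation machinery were counted from 8 lists with 181 tested genes in all. JH was higher in 26 of them and lower in 3 at an unadjusted p under 0.05, beside 8.35% and 9.51% of all genes, and 1 passed the adjusted test. Ribosome assembly factors (40 tested) had a median log2 fold change of 0.43. In this list 11 genes were higher in JH at an unadjusted p under 0.05 (27.5%, beside 8.35% of all genes) and 0 lower (9.51% of all genes), 14 had every JH value above every LD value (35.0%, beside 10.8%), and 0 passed an adjusted p under 0.05. RRP9, a part of the U3 particle that processes pre-rRNA, had 22.3, 30.4 and 21.0 RPKM in JH and 8.09, 13.4 and 9.07 RPKM in LD (1.28, SE 0.28, limma adjusted p = 0.0516). PDCD2L (1.19, SE 0.39) and NMD3 (1.14, SE 0.40), the export adapter of the large subunit, also had separate breeds, with 11 to 43 and 6 to 34 reads per library. The median of the assembly factors deviated by 0.40 in JH1, 0.34 in JH2 and 0.04 in JH3, and by -0.18, -0.07 and -0.49 in LD1, LD2 and LD3. JH3 thus lay above the 3 LD libraries in this list and within their range in the ribosomal protein genes.

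Mitochondrial ribosomal proteins, which build the separate ribosome of the mitochondrion, had a median log2 fold change of 0.41 over 56 tested genes. The median was 0.27 without LD3 and 0.61 without JH3. Of these genes, 54 were above 0 (52.9% of all genes were), 9 were higher in JH at an unadjusted p under 0.05 (16.1%, beside 8.35% of all genes) and 0 lower (9.51% of all genes). MRPS33 was the single gene of the 8 lists to pass the adjusted test. It rose from 24.9, 21.6 and 25.5 RPKM in LD to 50.3, 58.9 and 44.2 RPKM in JH (1.08, SE 0.23, limma adjusted p = 0.0480). Its adjusted p lies just under the threshold, and under several of the other settings given at the end 0 genes of these lists passed. RNA polymerase I, which transcribes the ribosomal RNA, had a median of 0.49 over 13 tested subunits and factors. At an unadjusted p under 0.05, JH was higher in 2 of them (15.4%, beside 8.35% of all genes) and lower in 1 (beside 9.51%). POLR1E had 8.51, 10.9 and 9.13 RPKM in JH and 4.21, 4.21 and 1.54 RPKM in LD (1.61, SE 0.38, limma adjusted p = 0.0674), and POLR2H, shared by the 3 RNA polymerases, a difference of 0.76 (SE 0.23). ZNRD1, with 0 to 14 reads per library, was listed at 0 in JH2 and JH3.

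Initiation factors had a median of 0.29 over 29 tested genes (0.17 without JH1, 0.48 without JH3), with 27 above 0 (52.9% of all genes were). At an unadjusted p under 0.05, JH was higher in 2 (6.9%, beside 8.35% of all genes) and lower in 1 (beside 9.51% of all genes). The cap-binding protein gene EIF4E had 14.6, 18.7 and 17.2 RPKM in JH and 11.3, 8.80 and 8.33 RPKM in LD (0.83, SE 0.24, limma adjusted p = 0.120). EIF2B2, a subunit of the exchange factor eIF2B, followed with 0.58 (SE 0.24), and the scaffold gene EIF4G3 was lower in JH at -0.54 (SE 0.22). The list of elongation factors and genes named after them, such as EEF2K and EEF1E1, had a median of 0.24 over 8 tested genes (0.08 without JH1, 0.15 without LD3, 0.41 without JH3). In this list EEF1E1 was higher at an unadjusted p under 0.05 (0.97, SE 0.31), which is 12.5% beside 8.35% of all genes. EEF1A1 and EEF2, whose mRNAs also carry a TOP tract, were named after their values were seen and had 0.44 (SE 0.25) and 0.03 (SE 0.24).

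Regulators of the machinery were split in direction. The list of mTOR and TOP mRNA regulators had a median log2 fold change of 0.01 over 25 tested genes, 13 of them above 0 (52.9% of all genes were). At an unadjusted p under 0.05 JH was higher in 1 (4%, beside 8.35% of all genes) and lower in 1 (beside 9.51%). EIF4EBP1, an inhibitor of cap-dependent initiation, had 110, 103 and 72.2 RPKM in JH and 65.3, 63.7 and 36.2 RPKM in LD (0.81, SE 0.30, limma adjusted p = 0.207). DEPTOR, an inhibitor of mTOR, had 3.48, 1.97 and 2.64 RPKM in JH and 4.09, 4.62 and 4.71 RPKM in LD (-0.74, SE 0.28, limma adjusted p = 0.206). The MYC family, which includes activators of ribosomal protein genes, had a median of 0.01 over 8 tested genes, with 0 at an unadjusted p under 0.05. mRNA levels do not show the activity of these proteins.

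**Figure D5:**
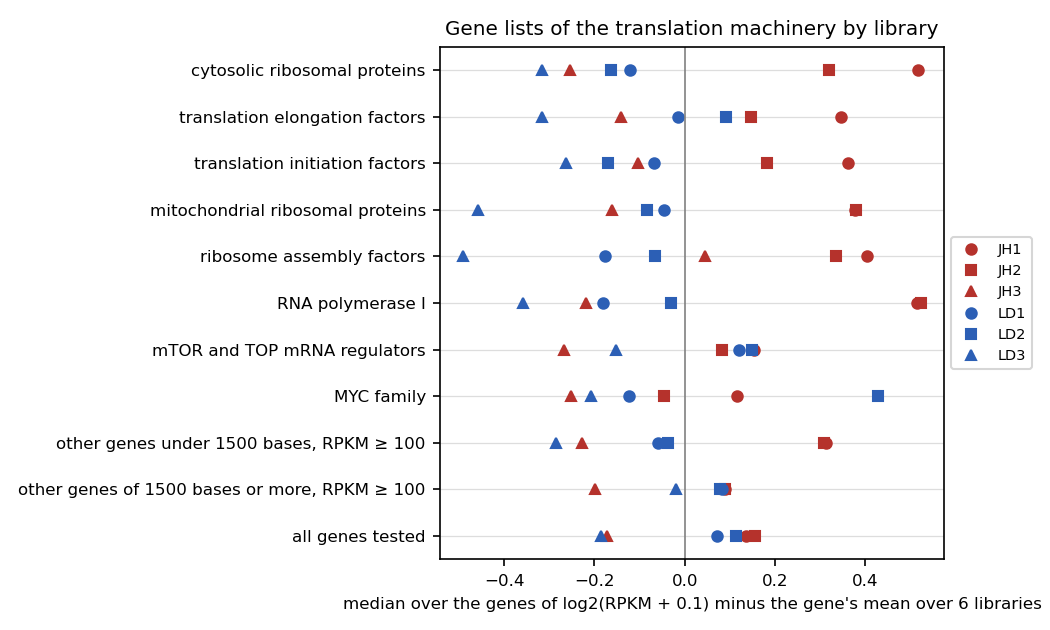
Median over the genes of each list (y axis) of log2(RPKM + 0.1) minus the gene's mean over 6 libraries (x axis), with JH libraries in red and LD libraries in blue. JH1 and JH2 lie to the right of every LD library except in the lists of mTOR and TOP regulators and of the MYC family. The gap is narrow for all genes tested and for long abundant genes. In the ribosomal protein, assembly factor and polymerase I lists and in other short abundant genes, JH3 lies within or close to the LD range.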

How the data were processed

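Liver mRNA of 3 JH and 3 LD pigs was compared. The authors filtered 50 bp single reads, aligned them to the pig genome with Tophat (TopHat2 2.0.13 in the submitters' processing notes), had gfold count the reads of each gene, and deposited the result as RPKM. Their own DEG test, DEGseq, pools reads. The small RNA files were not used here. Read totals and gene lengths were recovered from the whole-read steps of the RPKM, with reads recovered for 16844 of 19614 genes above 0. The groups came from the breed label.

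The breeds were compared in limma 3.58.1 (R 4.3.3; lmFit, trended eBayes), taking log2(RPKM + 0.1) of the 12993 genes that reached 0.5 RPKM in 3 or more libraries. Adjusted p (limit 0.05) is Benjamini-Hochberg over these genes. A fold change on this scale understates the change of low genes. Other steps ran in Python 3.11.15 (scipy 1.17.1, numpy 2.4.6, pandas 2.3.3), with figures drawn in matplotlib 3.10.9. The fits and the read recovery were tested on simulated data. Genes were drawn there independently of each other, unlike the members, so the simulation does not bear on counts over members. Alternatives were other pseudocounts, filters and scalings, the replicate block, each library left out and, added after the values were seen, leaving out JH3 and LD3, removing a length trend, and voom on recovered reads.

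The members and gene lists were chosen with earlier results of these data known. Genes were named by size of change, level, known role and paralogy: in each subunit and direction the 5 largest changes and the 3 highest and lowest levels, the 5 largest changes relative to the median member, and in each other list up to 3 per direction. Others are said to be named after their values were seen. The list of ribosomal proteins outside the rule included FAU and GNB2L1 (RACK1). Some genes enter the counts but are not reported here by name.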

Additional observations from a re-analysis of the deposited data

How the results depend on the processing

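With 3 pigs per breed, the spread among pigs limits what can be shown. The SD of the log2 level within JH had a median of 0.42 over the members, and exceeded the SD from counting alone by over 3 times in 60 of 63. At an adjusted p under 0.05, 0 members were called under all 18 alternatives, with a lowest limma adjusted p of 0.0540 (RPL10A, length trend removed). The subunit medians stayed above 0, at 0.18 to 0.64 for the large and 0.19 to 0.61 for the small subunit. With a library left out, the list medians ranged from 0.08 to 0.41 for elongation factors, 0.17 to 0.48 for initiation factors, 0.27 to 0.61 for mitochondrial ribosomal proteins, 0.29 to 0.59 for assembly factors, 0.35 to 0.68 for RNA polymerase I, -0.09 to 0.14 for mTOR and TOP regulators and -0.16 to 0.18 for the MYC family. Relative to the median member, the count at an unadjusted p under 0.05 was 0 to 5. Of 37 named genes, 29 kept their direction throughout.

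The count of members higher in JH at an unadjusted p under 0.05 was 7 as reported (11.1%, beside 8.35% of all genes). It was 19 with median scaling (30.2%, beside 11%), 18 with TMM factors (28.6%, beside 10.5%) and 22 with the replicate block (34.9%, beside 12%). Without JH3 and LD3 it was 18 (28.6%, beside 9.41%), with the length trend removed 13 (20.6%, beside 9.88%) and with voom 12 (19.0%, beside 8.41%). With a library left out it ranged from 1 without LD3 (1.59%, beside 5.37%) to 39 without JH3 (61.9%, beside 13.4%). The count with every JH above every LD value was 14 as reported (22.2%, beside 10.8% of all genes). It was 22 with median scaling (34.9%, beside 14.4%) and 59 without JH3 and LD3 (93.7%, beside 29.1%). With a library left out, which can only keep or raise this count, it was 14 to 59. It was 59 without JH3 (93.7%, beside 26.8%) and 25 without LD1 (39.7%, beside 18.3%). The labels do not say whether the shared replicate numbers pair the pigs. Deviations of same-numbered pigs correlated at -0.02, 0.05 and 0.18 across genes, against -0.13 to 0.08 for differently numbered pigs. The value for JH3 and LD3 was the highest of all pairs. The block turned no call at an adjusted p, and a batch shared by same-numbered libraries was not tested.

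List genes at an adjusted p under 0.05, 1 as reported, were 0 with a pseudocount of 0.01, with no filter, without a trend and without JH3 and LD3; 2 with RPKM of at least 5; 3 with a pseudocount of 1 and with voom; 4 with quantile normalization, median scaling, TMM factors and the length trend removed; and 0 to 2 with a library left out.

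Some small fold changes turned their sign. Under quantile normalization they were -0.072 for RPL11, -0.00023 for RPL34, -0.054 for RPL9, -0.039 for RPL18 and -0.10 for RPL31. With the length trend removed they were -0.032 for RPL9, -0.022 for RPL18 and -0.012 for RPL31. Without JH3 and LD3, RPS19 was at 0.26. With 1 library, or both JH3 and LD3, left out the ranges were -0.14 to 0.57 for RPL35, -0.0037 to 0.39 for RPL11, -0.0094 to 0.51 for RPS20, -0.13 to 0.27 for RPL9, -0.11 to 0.45 for RPL18, -0.10 to 0.51 for RPL31 and -0.28 to 0.33 for RPS19. The cause was not tested.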
